A study of Urocitellus parryii with 24 samples.

Results

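The early and late stages of an arousal episode were compared in the liver of 8 Arctic ground squirrels (AGS, Urocitellus parryii), taken by the status label of each sample out of 24 animals in the series. Early arousal (n = 4) was sampled 1 to 2 h, and late arousal (n = 4) 7 to 8 h, after body temperature had passed 30 °C during a spontaneous rewarming. All 8 animals had gone without food since hibernation began, were kept on the same short photoperiod, and were decapitated under isoflurane anesthesia. The other 16 animals, 4 in early torpor, 5 in late torpor, and 7 active in summer, entered the fit to estimate the spread between animals. The torpid animals had also gone without food but were decapitated without anesthesia. The summer animals were decapitated under isoflurane, and the study states no food deprivation for them. Each animal gave 1 nylon membrane with 9600 spotted cDNA probes and was sampled once, so that the stages were compared between animals and not followed within them.

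Hibernating ground squirrels interrupt weeks of torpor with short arousal episodes at normal body temperature. In torpor, transcription and translation in the liver come close to a halt, and on rewarming they start again, together with blood flow, protein folding, glucose production, and protein secretion. Immediate early genes and heat shock genes are known for brief responses to such stimuli, whereas enzymes with stable mRNA change more slowly. The comparison asks how far the liver transcriptome of the first hours of warmth differs from that of the later hours, before the animal cools again. The study pooled both stages into 1 arousal state and gave no test between them.

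A level is the log2 of a probe's background-subtracted median signal over the median of its array, and a stage difference is the late arousal mean minus the early arousal mean on that scale. The arrays are named by animal, and levels are listed in the order 04-84, 04-21, 04-10, and 04-43 for early arousal and 04-72, 04-30, 04-31, and 2000-22 for late arousal. The membrane of late arousal 04-30 came from a filter set called A2 in the scanner files, and the other 7 came from set A1, so values are also given without 04-30. Leaving it out removes the membrane and the animal together, and their parts cannot be told apart in the arousal arrays. Gene symbols were known for the 1329 genes that the study listed as different among torpor, arousal, and summer on these same arrays. Those genes are therefore not a random sample of the liver's genes. Beyond the rule for named genes, a few members of the gene lists are named after their values were seen, mostly those with an unadjusted p under 0.05, namely UGP2, G6PC, C14orf1, UGT2B4, SDHA, IFRD1, SAT1, HSPA8, PFKP, TEF, and CSNK1D.

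The 8 arrays had a median signal of 112 ± 13.5 intensity units (SD, n = 4) in early and 103 ± 14.1 (n = 4) in late arousal. ImaGene marked 55 to 70 spots per array as empty in early and 71 to 94 in late arousal, without overlap (exact permutation test, 2-sided p = 0.0286, the smallest that 4 against 4 arrays allow). The membranes of early arousal carried filter numbers 14 to 18 and the A1 membranes of late arousal carried 9 to 13, so stage and filter number cannot be told apart in these arrays. The part of the empty spots in the stage differences was not tested. On the first principal component of the 8 arrays, 04-30 lay at 66.1 and the other 7 between -17.96 and -3.4. On the second, late arousal 2000-22 lay at -43.1 and the other 7 between -12.8 and 19.3, and its median signal, 84.3, was the lowest of the 8. The deviation of 04-30 from the mean of the other 3 late arrays correlated at r = 0.51 over 9407 probes with the difference between A2 and A1 membranes among the summer animals, against -0.34 to 0.05 for the other 7 arrays. These correlations run across probes, which are not independent, and the late arrays on A1 were each set against a mean that holds 04-30. Markers of hepatocytes were high in both stages, and albumin (ALB) had a level of 8.49 ± 0.47 in early and 8.34 ± 0.34 in late arousal. The mean level of the 8 hepatocyte markers ran from 4.51 to 4.92 in early and from 4.74 to 4.97 in late arousal, that of 9 leukocyte markers from 0.46 to 0.65 and from 0.36 to 0.83, that of 9 endothelial and stromal markers from -0.31 to -0.07 and from -0.22 to -0.02, and that of 8 striated muscle markers from -0.99 to -0.76 and from -1.02 to -0.66. The 1 red blood cell marker measured, HBA2, ran from -1.31 to 1.27 in early and from -0.28 to 0.83 in late arousal. The part of these cell types in the stage differences was not tested, and in whole liver fewer cells of a type and less RNA per cell cannot be told apart.

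No probe passed the test between early and late arousal. Of 9597 probes, 0 (0%) had an adjusted p under 0.05 in limma, and the smallest adjusted p was 0.341. At an unadjusted p under 0.05 there were 748 probes (7.79%), of which 490 (5.11% of all probes) were higher in late arousal and 258 (2.69%) were higher in early arousal. With quantile normalization the split was 422 higher and 353 lower in late arousal. All 4 late arrays lay above all 4 early arrays at 219 probes (2.28%) and below them at 106 probes (1.1%), which makes 325 probes (3.39%) without overlap. Over the 70 possible splits of 4 against 4 arrays, chance alone would leave a share of 0.0286 of probes without overlap. A lack of overlap is therefore not a call. Differences over 0 were 5100 (53.1%) of all probes and 694 (52.2%) of the genes with a symbol, the background for every count of list members higher in late arousal. Among the 1329 genes with a symbol, 0 (0%) were called and 99 (7.45%) had an unadjusted p under 0.05, of which 71 (5.34% of the 1329) were higher and 28 (2.11%) lower in late arousal. Of these genes, 28 (2.11%) lay wholly above and 16 (1.2%) wholly below early arousal, 44 (3.31%) in all. The shares are close to those over all probes.

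The stage differences were small against the spread between animals. Their median over all probes was 0.03, and from the 5th to the 95th percentile they ran from -0.54 to 0.65. The median standard error was 0.28, and the 95% confidence interval of a probe reached a median of 0.58 to either side. That interval stayed within a difference of 1 to either side, a 2-fold change, for 6692 probes (69.7%), and for the other probes it reached past 1. Without 04-30, limma again called 0 of 9593 probes, 596 (6.21%) had an unadjusted p under 0.05, 376 (3.92%) were at that p and higher in late arousal, and 583 (6.08%) had arrays without overlap. With 4 against 3 arrays, chance alone would leave a share of 0.0571 without overlap, against 0.0286 for 4 against 4. The rise in that count therefore does not show a clearer separation. Of the 748 probes, all kept their direction and 402 were again under 0.05, which is 53.7% of the 748 and 67.5% of the 596. The repeat reuses the other arousal arrays on which the 748 were chosen. That choice largely fixes the kept direction, which is no separate support. With the filter number as a covariate over the 16 winter arrays on A1 membranes, 0 probes were called, 623 had an unadjusted p under 0.05, and 352 of them were higher in late arousal.

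Of the 1329 genes, 12 (0.903%) differed by more than 1 between the stages, against 128 (1.33%) of all probes. These were 9 lower and 3 higher in late arousal. Of these 12, 4 shrank to under 0.5 in size without 04-30, and they are named here after their values were seen. GPS2, a subunit of a nuclear corepressor complex, had levels of 0.18, 0.14, -0.17, and -0.27 in early arousal and -0.14, -7.43, -0.09, and -0.67 in late arousal. Its stage difference was -2.06 with all arrays and -0.27 without 04-30. FLJ11506, NUDT3, and CLIC4 showed the same picture, with levels of -7.94, -5.44, and -5.61 on 04-30 and between -1.23 and 0.67 on the other 7 arrays. Of the 5 A2 membranes of summer animals, 2 had no signal above background, and thus no level, for GPS2, FLJ11506, and NUDT3, and 1 had none for CLIC4. On the other A2 membranes (n = 3, 3, 3, and 4) the 4 genes had mean levels of -5.57, -4.44, -8.02, and -6.08, and on the 2 A1 membranes -0.23, 0.50, -0.04, and -0.76. These probes were thus far dimmer on both the arousal and the summer membranes of the A2 set. The other 8 of the 12 genes kept their direction without 04-30. HSD3B2, EAF2, and THOC1, also named after their values were seen, went from 1.04, -1.03, and -1.37 to 1.39, -1.12, and -1.57. The signal of THOC1 averaged only 1.53 times background. PPP1R3C, HMGCS1, EGR1, LPIN2, and CHCHD7 are described below.

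**Figure D1:**
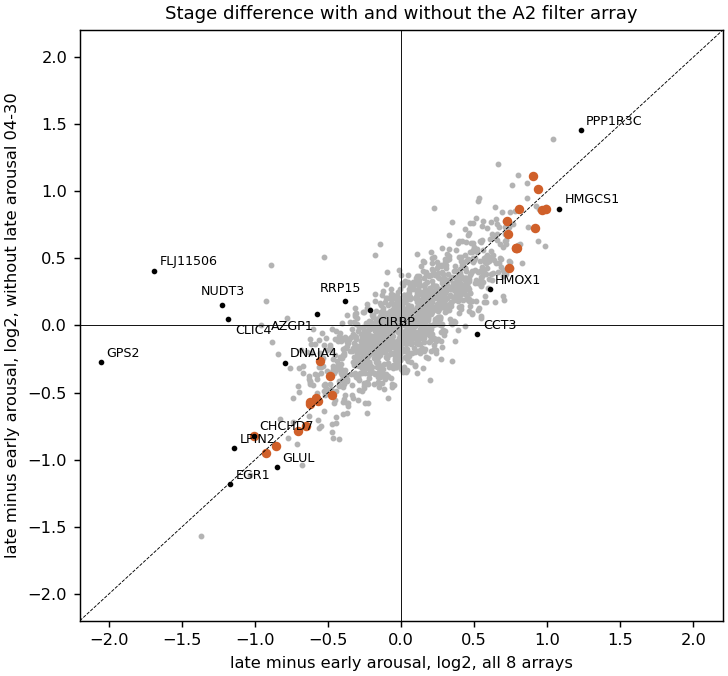
Stage difference (late minus early arousal, log2) of the 1329 genes with all 8 arrays (x axis) against the difference without late arousal 04-30 (y axis). Orange points are the 24 genes named for arrays that do not overlap, black points are other genes named in the text, and the dashed line marks equality: GPS2 moves from -2.06 to -0.27, whereas EGR1 stays at -1.17 and -1.18.

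The largest difference toward late arousal was that of PPP1R3C, a scaffold that brings protein phosphatase 1 to glycogen and favours glycogen synthesis. Its levels were 2.47, 1.97, 2.07, and 2.86 in early arousal and 2.78, 2.89, 3.82, and 4.78 in late arousal. The highest early array thus lay above the lowest late array, while 04-31 and 2000-22 stood well above all early arrays. The difference of 1.23 (standard error 0.41, 95% confidence interval 0.39 to 2.06), a fold change of 2.34, had an unadjusted p of 0.0056 and an adjusted p of 0.45 in limma. It was 1.46 without 04-30 and ran from 0.82 to 1.49 when each array was left out in turn. UGP2, which makes the UDP-glucose used for glycogen, was higher by 0.60 in late arousal (standard error 0.29, unadjusted p = 0.0486, adjusted p = 0.637). The gluconeogenic genes PCK1 and G6PC had differences in the other direction, of -0.45 (standard error 0.76) and -0.43, and neither had an unadjusted p under 0.05. Without 2000-22 the difference of PCK1 turned to 0.25 and that of G6PC was -0.14, while without 04-30 that of PCK1 was -0.73. PCK1 levels ran from 6.78 to 8.45 in early and from 4.96 to 8.41 in late arousal, so that the spread within the late stage was far wider than the difference. Over the 9 measured genes of gluconeogenesis and glycogen, 6 were higher in late arousal and 0 were called, with a median of 0.05 against 0.03 over all probes. The median was -0.17 without 04-43 and 0.25 without 2000-22, and over 23 gene lists with at least 3 measured members it changed sign in 14 when 1 of the 8 arrays was left out.

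Sterol synthesis showed a similar spread. HMGCS1, which makes the precursor of mevalonate in the cytosol, had levels of 1.93, 2.37, 1.81, and 2.96 in early arousal and 2.16, 3.99, 2.45, and 4.80 in late arousal. The late values fell into a low pair within the early range and a high pair above it, and the difference of 1.08 (95% confidence interval -0.06 to 2.22) had an adjusted p of 0.664. It was 0.87 without 04-30 and 0.60 without 2000-22. C14orf1, a protein of the membrane complex for the late steps of sterol synthesis, was higher by 0.77 (standard error 0.25, unadjusted p = 0.00474, adjusted p = 0.45), and by 0.76 without 04-30. FDPS had the lowest value of the list, with a difference of -0.16 that was 0.14 without 2000-22. Of 11 sterol genes measured, 7 were higher in late arousal, 0 were called, and the median was 0.23, with 0.12 without 04-30 and 0.46 without 2000-22.

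Enzymes that conjugate drugs and steroids were mostly higher in late arousal, though none was called. Of 19 measured, 16 had a positive difference, with a median of 0.29 that was 0.26 without 04-30, 0.20 with a term for the filter set, and 0.07 with quantile normalization, where 11 of 19 were positive. GSTT2, a glutathione transferase, had levels of 2.87, 2.58, 2.26, and 1.99 in early arousal and 3.05, 3.11, 3.53, and 3.75 in late arousal. Its arrays did not overlap, and the difference of 0.94 (standard error 0.39) had an adjusted p of 0.573. UGT2B4, a glucuronosyltransferase for bile acids and steroids, had a difference of 0.93 (standard error 0.39, adjusted p = 0.583), with 1 early array, at 4.46, above the lowest late array, at 4.35. Its difference was 0.63 without 04-10. The lowest value of the list was -0.06 for UGT1A8, and 0.16 without 04-30. The median of the list was lowest, at 0.12, without 04-31. Probes of the UGT1A and UGT2B families may share sequence, and their separate values are uncertain for that reason.

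Among oxidizing enzymes, 2 flavin mono-oxygenases stood at the top of the list. FMO4 had levels of 3.35, 3.49, 2.46, and 2.90 in early arousal and 3.97, 4.54, 3.63, and 3.73 in late arousal. Every late array lay above every early array, and the difference was 0.92 (standard error 0.31, unadjusted p = 0.00654, adjusted p = 0.47) and 0.73 without 04-30. Late arousal 04-30 was the highest late array, and summer A2 membranes exceeded A1 membranes by 0.86 for FMO4. FMO5 ran from -0.72 to 1.35 in early and from 0.96 to 1.53 in late arousal, with a difference of 0.99 (standard error 0.35, adjusted p = 0.5). The early level of FMO5 was also below those of late and early torpor, at 1.33 ± 0.53 (n = 5) and 1.29 ± 0.46 (n = 4). CYP3A5 had the lowest value, -0.76, of which -0.32 was left without 04-30. The median over the 17 genes was 0.08, with 10 higher in late arousal and 0 called. It was 0.23, with 14 higher, without 04-30 and -0.06 with quantile normalization.

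The 12 largest differences toward late arousal among genes without overlap also took in genes of the mitochondrion, of RNA processing, and of protein turnover. MRPL47, of the large mitochondrial ribosomal subunit, had levels of -0.47, -0.40, -0.65, and 0.20 in early and 0.62, 1.02, 0.51, and 0.48 in late arousal. Its difference of 0.99 (standard error 0.23, unadjusted p = 0.000242) shared the smallest adjusted p, 0.341, and was 0.87 without 04-30. Late arousal 04-30 was the highest late array, and summer A2 membranes exceeded A1 membranes by 0.55 for MRPL47. The median of all 10 mitochondrial ribosomal genes was -0.05, with 6 of the 10 lower in late arousal, and without 04-30 it was 0.04, with 6 of the 10 higher. DDX47, an RNA helicase of ribosomal RNA processing, had levels of -1.19, -0.34, -0.23, and -0.63 against 0.23, 0.68, 0.69, and -0.11. Its early arrays were also below both torpor groups, whose means were 0.55 ± 0.23 and 0.43 ± 0.38, and the stage difference was 0.97 (standard error 0.24, adjusted p = 0.349). SDHD, the membrane anchor of succinate dehydrogenase, was higher by 0.73 (adjusted p = 0.45), and SDHA, the flavoprotein subunit of that enzyme, by 0.48 (adjusted p = 0.583). NDUFA5, of complex I, had the lowest value of the respiratory chain list, -0.37 (adjusted p = 0.858), which was -0.65 without 04-30. Of 21 genes of the respiratory chain and ATP synthase, 13 were higher in late arousal and 0 were called, and the median was 0.18, and 0.02 without 04-30.

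SERHL, a serine hydrolase-like gene, had little spread within either stage. Its levels were 2.93, 3.53, 2.84, and 3.18 in early and 3.74, 3.76, 4.12, and 4.10 in late arousal, and the difference of 0.81 (standard error 0.19, adjusted p = 0.341) was 0.87 without 04-30 and between 0.72 and 0.94 with any 1 array left out. SLC9A3R1, a scaffold for membrane transporters, had levels of 1.79, 1.76, 1.81, and 1.46 against 2.28, 1.99, 3.31, and 2.87, a difference of 0.90 (adjusted p = 0.45). POT1, which caps telomeres, was higher by 0.72 and C12orf44, a component of the autophagy initiation complex, by 0.79, with an adjusted p of 0.45 in both. CTR9, of the PAF1 transcription elongation complex, PSMB1, a core subunit of the proteasome, and C12orf44 rested more on late arousal 04-30. CTR9 was at 0.57 on 04-30 and between -0.36 and -0.23 on the other late arrays, and its difference of 0.79 was 0.57 without 04-30. PSMB1 was at 0.79 on 04-30 and between -0.55 and -0.37 on the others, and its difference of 0.74 was 0.43 without it. C12orf44 was at -0.40 on 04-30 and between -1.46 and -1.01 on the other late arrays, and its difference was 0.58 without 04-30. Among summer animals the A2 membranes were higher than the A1 membranes by 0.83 for CTR9, by 1.44 for PSMB1, and by 0.48 for C12orf44.

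**Figure D2:**
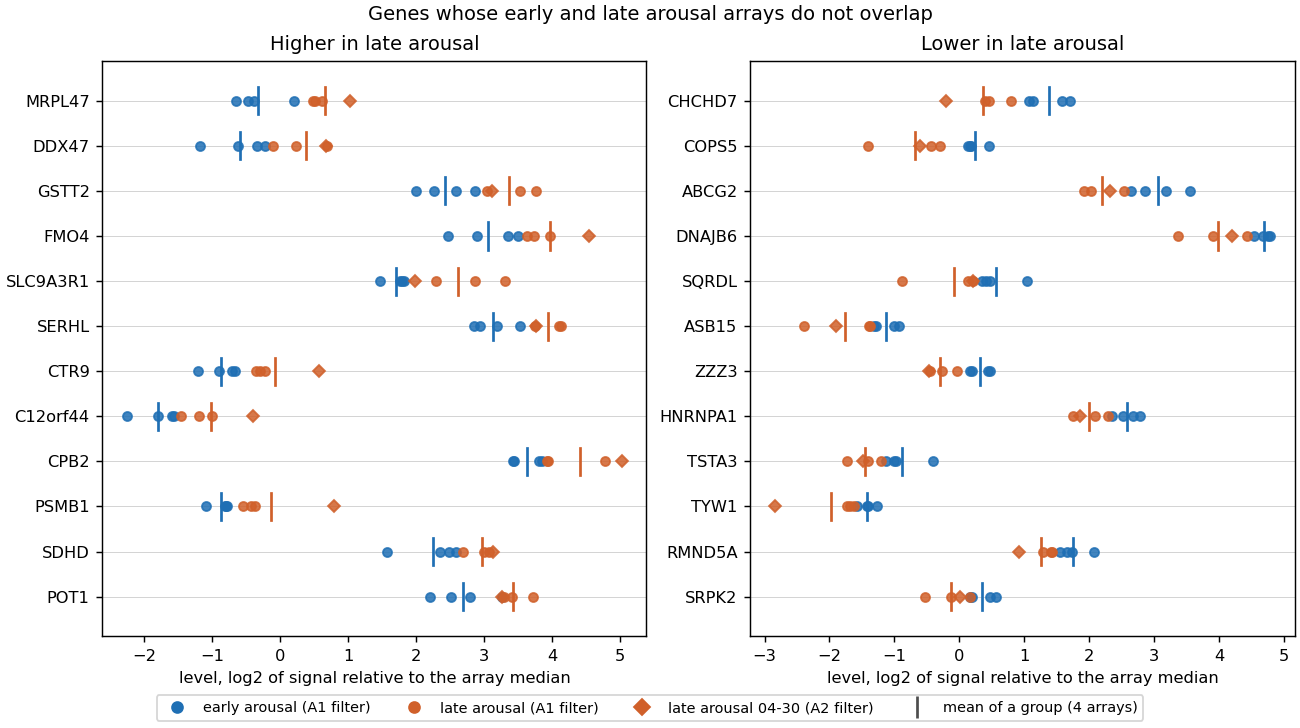
Levels (log2 of signal relative to the array median, x axis) of the 12 genes with the largest positive and the 12 with the largest negative stage difference among genes whose early and late arousal arrays do not overlap. Each point is 1 array, vertical bars are group means, and the diamond is late arousal 04-30 on the A2 membrane, which stands apart for PSMB1, CTR9, and TYW1 but lies among the other late arrays for DDX47, ABCG2, and SERHL.

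Secreted proteins of the liver showed a small shift toward late arousal that depended on scaling. CPB2, a plasma carboxypeptidase that slows the lysis of fibrin clots, had levels of 3.85, 3.44, 3.42, and 3.80 in early and 3.91, 5.02, 4.77, and 3.93 in late arousal. The arrays did not overlap, but 04-72 and 2000-22 lay just above the highest early array, and the difference was 0.78 (standard error 0.25, unadjusted p = 0.00446, adjusted p = 0.45) and 0.58 without 04-30. SERPINA1, the inhibitor of neutrophil elastase, was higher by 0.65 (standard error 0.30, adjusted p = 0.632), and by 0.42 without 04-21, with overlapping arrays. Of the 30 genes measured, 20 were higher in late arousal, 0 were called, and the median of 0.13 was 0.31 without 04-10 and -0.09 with quantile normalization. ALB, the most abundant of them in blood, had a difference of -0.16 (95% confidence interval -0.74 to 0.43), which was -0.07 without 04-30. AZGP1 had the lowest value of the list, -0.57 (adjusted p = 0.797), which was 0.09 without 04-30.

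In the other direction, EGR1, an immediate early transcription factor, had levels of 2.51, 1.47, 1.57, and -0.13 in early and -0.35, 0.23, 0.49, and 0.37 in late arousal. It was high in 3 of 4 early arrays and low in the fourth and in all late arrays. The difference of -1.17 (standard error 0.48, 95% confidence interval -2.16 to -0.18) had an unadjusted p of 0.0224 and an adjusted p of 0.561, and it was -1.18 without 04-30. IFRD1, a coregulator induced by growth signals, and SAT1, which breaks down polyamines, followed in the same list with -0.83 (standard error 0.34, adjusted p = 0.56) and -0.74 (standard error 0.28, adjusted p = 0.52). IFRD1 had levels of -0.64, 0.46, 1.43, and 0.61 in early and -0.95, -0.75, -0.20, and 0.45 in late arousal, and its difference was -0.51 without 04-10. ID2, an inhibitor of basic helix-loop-helix factors, lay at the other end with 0.74 (standard error 0.39, adjusted p = 0.664), a difference of 0.48 without 04-30. The 9 signal-induced regulators measured thus pointed both ways, 4 higher and 5 lower in late arousal, with 0 called and a median of -0.05, which was -0.27 without 04-30 and 0.09 without 04-31. Among 9 glucocorticoid-responsive genes, 6 were lower and 0 were called, and the median of -0.28 was -0.11 without 04-30. GLUL, glutamine synthetase, led that list with levels of 3.14, 3.93, 3.59, and 3.11 against 2.51, 3.22, 2.69, and 1.96 and a difference of -0.85 (standard error 0.47, adjusted p = 0.694).

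LPIN2, a phosphatidate phosphatase that makes diacylglycerol for triacylglycerol, had levels of 3.11, 3.33, 2.30, and 2.88 in early and 1.39, 1.07, 3.30, and 1.27 in late arousal. Late arousal 04-31 stood at the level of early arousal and the other 3 late arrays lay below every early array. The difference of -1.14 (standard error 0.43, unadjusted p = 0.0136, adjusted p = 0.518) was -1.66 without 04-31 and -0.91 without 04-30. Late arousal 04-30 was the lowest late array, and in summer animals the mean of LPIN2 on A2 minus that on A1 membranes was -1.04. Over the 14 enzymes of fatty acid and triacylglycerol synthesis, LPIN2 included, 7 were higher and 7 lower in late arousal and 0 were called. GPAM, the acyltransferase of the first step, was the highest at 0.54 (standard error 0.40, adjusted p = 0.783). Of 19 genes of fatty acid oxidation and ketogenesis, 11 were higher and 0 were called, with a median of 0.06 that was -0.16 with quantile normalization and -0.09 without 04-31. The list ran from -0.63 for ACADVL, of the first step for very long chains, to 0.46 for MLYCD, which breaks down malonyl-CoA, and these were -0.37 and 0.20 without 04-30.

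The 12 largest negative differences without overlap began with CHCHD7, a small mitochondrial protein, which had levels of 1.70, 1.59, 1.08, and 1.13 in early and 0.39, -0.20, 0.80, and 0.46 in late arousal. Its difference of -1.01 (standard error 0.28, unadjusted p = 0.00142, adjusted p = 0.45) was -0.82 without 04-30. Late arousal 04-30 was the lowest late array, and in summer animals the mean of CHCHD7 on A2 minus that on A1 membranes was -0.90. COPS5, the catalytic subunit of the COP9 signalosome, had levels of 0.17, 0.46, 0.13, and 0.19 against -0.29, -0.61, -0.44, and -1.41, a difference of -0.92 (adjusted p = 0.45). ABCG2, an efflux transporter of drugs and urate, had levels of 3.19, 3.55, 2.63, and 2.86 against 2.54, 2.32, 2.02, and 1.92, a difference of -0.86 (adjusted p = 0.45). When arrays were dropped singly, the smallest differences were -0.68 for COPS5 and -0.70 for ABCG2. SQRDL, which oxidizes hydrogen sulfide in mitochondria, had a difference of -0.65 (adjusted p = 0.516), with -0.89 on 2000-22 and 0.14 to 0.21 on the other late arrays, and it was -0.39 without 2000-22. The genes HNRNPA1 and SRPK2, a splicing factor and a kinase of splicing factors, had differences of -0.58 (adjusted p = 0.56) and -0.47 (adjusted p = 0.664). For SRPK2 the lowest early array, at 0.16, all but touched the highest late array. Of 26 genes of splicing and RNA helicases, 15 were lower, 0 were called, and the median was -0.14, and -0.08 without 04-30. TYW1, an enzyme of transfer RNA modification, was at -2.84 on 04-30 and between -1.73 and -1.62 on the other late arrays, and its difference of -0.55 was -0.26 without 04-30.

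All 24 of these genes without overlap kept their direction in each of 24 alternative settings, which the choice of arrays that do not overlap largely fixes. Their differences ran from 0.47 to 1.01 in size, and 16 of the 24 had an unadjusted p under 0.05 without 04-30. Late arousal 04-30 was the late array farthest from early arousal for 11 of the 24 genes, and for 139 (42.8%) of the 325 probes without overlap.

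Heat shock genes and their cochaperones changed direction in their median when late arousal 04-30 was left out. The median over 14 genes was 0.20 with all arrays and -0.16 without 04-30, 0 were called, and the number higher in late arousal went from 8 to 6. DNAJB6, a cochaperone of HSP70, had levels of 4.78, 4.75, 4.67, and 4.53 in early and 3.37, 4.20, 3.90, and 4.43 in late arousal, a difference of -0.71 (standard error 0.28, adjusted p = 0.538) that was -0.78 without 04-30. HSPA8, the constitutive HSP70, had levels of 4.29, 4.56, 5.10, and 4.45 against 3.79, 5.09, 3.81, and 3.81. Only 04-30 reached the early range, and the difference was -0.47 (adjusted p = 0.768) with all arrays and -0.80 (standard error 0.32, unadjusted p = 0.0208, adjusted p = 0.694, and 0.58 to 0.88 over the alternatives) without 04-30. In summer animals the mean of HSPA8 on A2 minus that on A1 membranes was -0.50, whereas 04-30 was the highest late array. DNAJA4 was at -3.15 on 04-30 and between -1.50 and -0.81 on the other late arrays, and its difference of -0.80 was -0.28 without it. CACYBP and HMOX1, a binding protein of calcyclin and the heme-degrading stress enzyme, were higher by 0.62 and 0.61 in late arousal without overlap, and by 0.38 and 0.27 without 04-30. Summer A2 membranes exceeded A1 membranes by 1.26 for CACYBP and by 0.90 for HMOX1. CCT3, a chaperonin subunit, went from 0.52 to -0.06 without 04-30. The unfolded protein response kept its direction without 04-30. Of its 7 genes, 6 were higher in late arousal and 0 were called, with a median of 0.23 that was 0.39 without 04-30 and 0.09 without 2000-22. DERL2, of endoplasmic reticulum degradation, had a difference of 0.63 (adjusted p = 0.67), which was 0.39 without 04-30, and summer A2 membranes exceeded A1 membranes by 1.09.

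**Figure D3:**
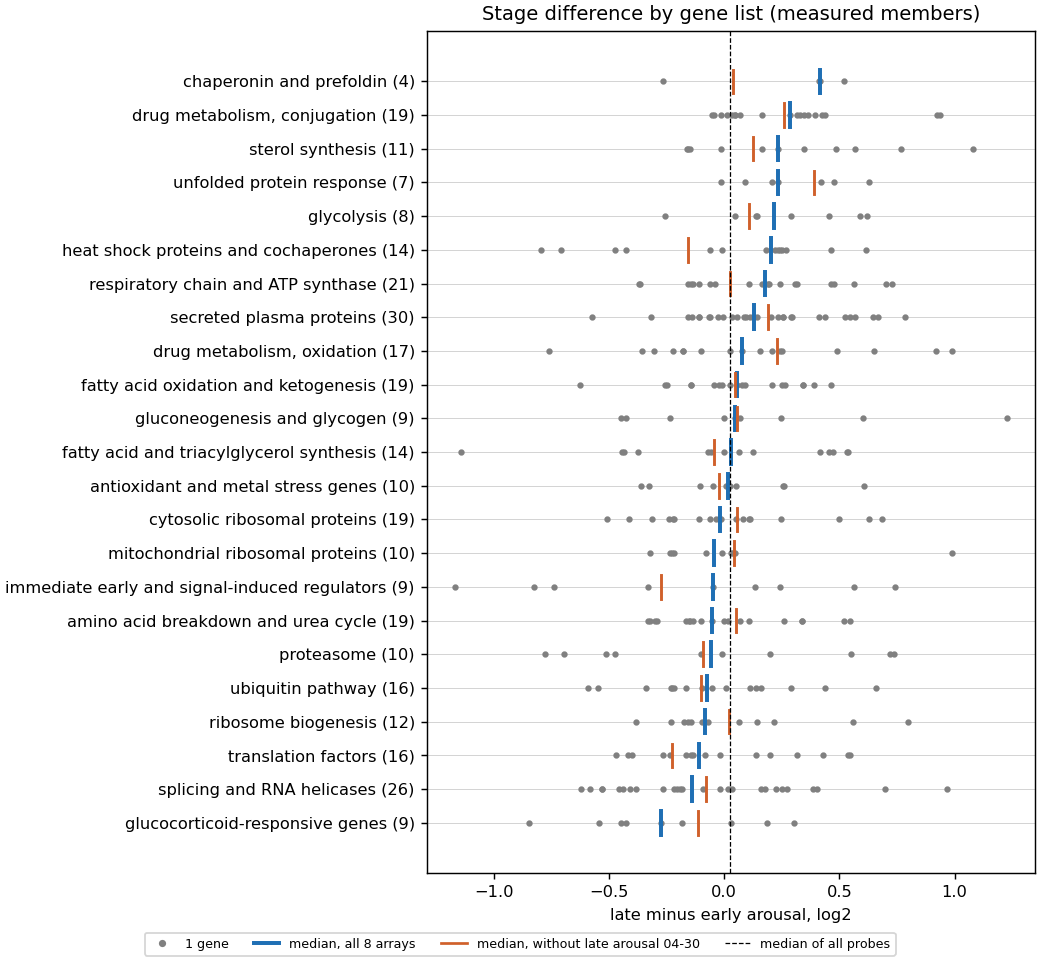
Stage difference (late minus early arousal, log2, x axis) of each measured gene (grey points) in the lists of at least 3 measured genes (y axis, number of genes in parentheses). Blue bars are list medians with all 8 arrays, orange bars are medians without late arousal 04-30, and the dashed line is the median of all probes, 0.03: the heat shock median moves from 0.20 to -0.16, whereas the median of conjugating enzymes moves from 0.29 to 0.26.

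In the remaining lists 0 genes were called. Glycolysis had 7 of 8 genes higher in late arousal and a median of 0.22, which was 0.11 without 04-30, with PFKP, a phosphofructokinase, at 0.59 (adjusted p = 0.632) and GAPDH at -0.26, and at 0.06 without 2000-22. The 4 chaperonin and prefoldin genes had the highest median of all lists with at least 3 measured genes, 0.41, which was 0.04 without 04-30. The medians were -0.02 for 19 cytosolic ribosomal proteins, -0.11 for 16 translation factors, -0.08 for 12 genes of ribosome biogenesis, -0.06 for 10 proteasome genes, -0.08 for 16 genes of the ubiquitin pathway, -0.05 for 19 genes of amino acid breakdown and the urea cycle, and 0.02 for 10 antioxidant and metal stress genes. Without 04-30 these medians were, in the same order, 0.06, -0.23, 0.02, -0.09, -0.10, 0.05, and -0.02, so that 4 of the 7 changed sign. Each of the 7 changed sign with at least 1 array left out. Within the ubiquitin pathway, FBXW7, a substrate receptor of a ubiquitin ligase, ran from -2.87 to -2.09 in early and from -1.99 to -1.71 in late arousal, without overlap. Its difference was 0.66 (standard error 0.32, adjusted p = 0.632), and only 2 of its 4 early arrays had a signal over 2 times background. Of the clock-related genes, TEF and CSNK1D were measured, with differences of 0.49 (adjusted p = 0.67) and 0.06, the latter -0.03 without 04-30. CIRBP, the cold-inducible RNA-binding protein, had levels of 1.42, 1.47, 2.14, and 1.88 in early and 1.81, 0.53, 1.87, and 1.85 in late arousal. Both stages were below late torpor, at 3.03 ± 0.26 (n = 5), and the stage difference was -0.21 (95% confidence interval -0.77 to 0.35), and 0.12 without 04-30. Among summer animals the mean of CIRBP on A2 minus that on A1 membranes was -0.08.

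The comparison of early with late torpor, which shares no array with arousal, gave the closest parallel in the design. There, 0 of 9595 probes (0%) were called, and 458 (4.77%) had an unadjusted p under 0.05, and 246 (2.56%) had arrays without overlap, with a median absolute difference of 0.18 against 0.22 in arousal. These values are not on equal terms. Torpor had 4 against 5 arrays, where chance leaves fewer probes without overlap, and all were on A1 membranes. Its median standard error was 0.27, against 0.28 in arousal. With a term for the filter set, the median absolute difference in arousal was 0.20. Across 9594 probes the stage differences of arousal and torpor correlated at r = -0.01, and 49.6% had the same sign. The interaction of stage and state was tested in limma, with 0 of 9594 probes called, 581 (6.06%) at an unadjusted p under 0.05, and a smallest adjusted p of 0.698. LPIN2 and PPP1R3C were among the genes with that smallest adjusted p. LPIN2 had a stage difference of -1.14 in arousal and of 1.18 in torpor, an interaction of -2.33 with an unadjusted p of 0.000609. PPP1R3C had a stage difference of 1.23 in arousal and of -0.60 in torpor, an interaction of 1.83 with an unadjusted p of 0.00311.

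Set in the order of the torpor cycle, from late torpor through early and late arousal to early torpor, the genes with large stage differences took several courses. EGR1 had means of -0.40 ± 0.25 (n = 5), 1.35 ± 1.09 (n = 4), 0.19 ± 0.37 (n = 4), and 0.08 ± 1.33 (n = 4), and -0.91 ± 0.42 (n = 7) in summer. LPIN2 had means of 2.31 ± 0.63, 2.90 ± 0.44, 1.76 ± 1.04, and 1.13 ± 0.20, so that its late arousal mean lay between early arousal and early torpor. PPP1R3C had means of 1.58 ± 0.74, 2.34 ± 0.41, 3.57 ± 0.93, and 2.18 ± 0.25, and in late arousal it was near the summer mean of 3.72 ± 0.55. GLUL was lowest in late arousal, at 2.59 ± 0.52, and early torpor held 1 array at a far higher level than the other 3. FMO5, FMO4, GSTT2, DDX47, and SDHD all had their lowest winter mean in early arousal. These genes were named for levels that were lower in early than in late arousal on these same arrays. That choice favours a low early arousal mean, and the share of all genes with this course was not counted. These courses are between different animals, and the differences between neighbouring groups other than the arousal stages are given as values only. Torpid animals had no anesthesia and summer animals were not in the hibernation fast, and the part of either was not tested.

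**Figure D4:**
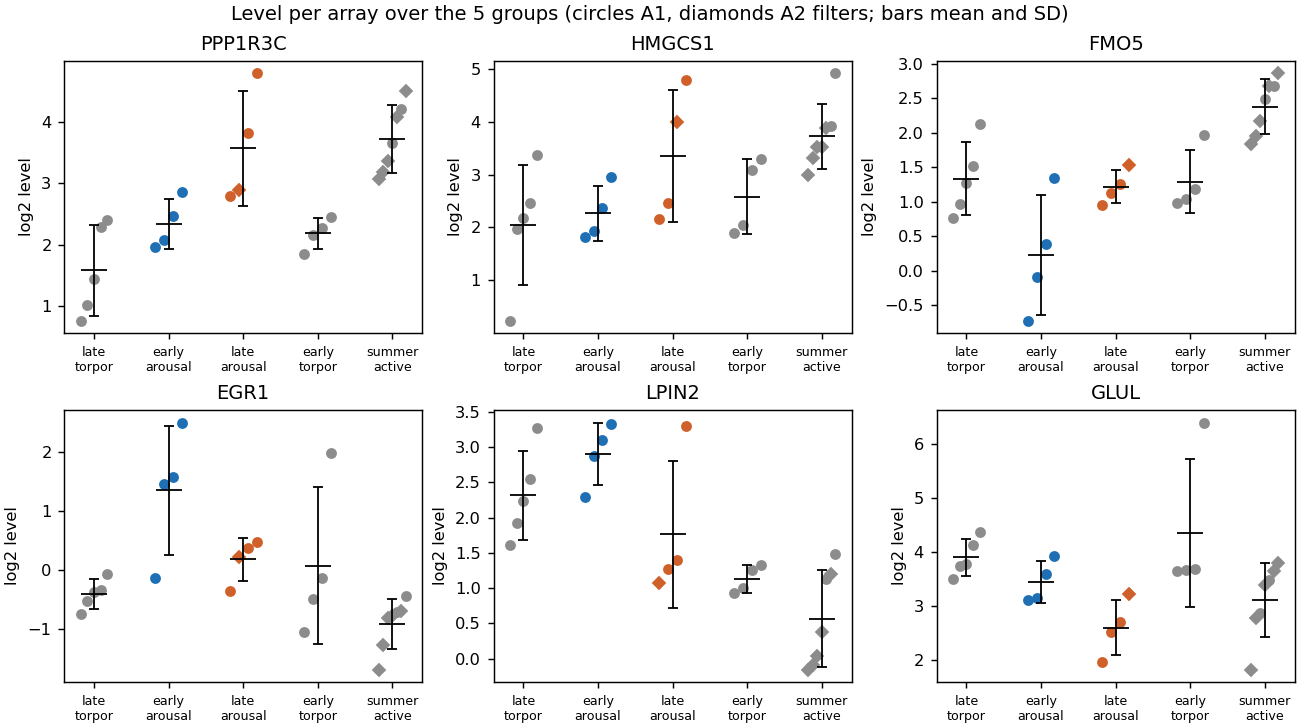
Level (log2 of signal relative to the array median, y axis) of 6 genes in each animal of the 5 groups (x axis), in the order of the torpor cycle followed by summer. Circles are A1 and diamonds A2 membranes, bars are mean and SD, and early (blue) and late (orange) arousal are coloured: EGR1 stands high in 3 early arousal animals, and LPIN2 is low in 3 of 4 late arousal animals.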

How the data were processed

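Liver RNA was amplified, labelled with 33P, and hybridized in 1 batch per the labels, with 1 animal per membrane. The authors deposited scanner values, and per the file headers these are intensity readings of every spot and its surround from ImaGene 6.1.0, before any background subtraction. They also deposited a ratio of the background-subtracted median signal to the array's median, on a linear scale, with empty spots at a floor of 0.002. The ratio recomputed from the intensity values matched the deposited ratio within 5e-07 at spots above the floor and was put on the log2 scale, which the deposited values are not. Spots at or below 0, which were 181 of 76800 on the arousal arrays, were missing values. Median signal was 84.3 to 132 units over a background of 14.6 to 18.3, and the number of arrays limits the precision.

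Early and late arousal were contrasted in limma (version 3.58.1, under R 4.3.3), where lmFit and eBayes took all 24 arrays in 5 groups, with Benjamini-Hochberg adjustment over all probes and calls at an adjusted p under 0.05. The script was tested on simulated data. Exact permutation tests, tables, and plots used scipy 1.17.1, pandas 2.3.3, numpy 2.4.6, and matplotlib 3.10.9. Gene symbols came from the study's list of 1329 genes, paired with probes by their means in 3 states (tolerance 1e-04); its columns of fold changes and p-values were not used. Of the symbols, 992 are in the RefSeq table of the species. The files name no genome build, and probe sequences were not used here.

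Named genes were the 12 largest differences in each direction without overlap among genes with a signal averaging over 2 times background, the highest and the lowest gene of each list with at least 3 measured members, and CIRBP, PCK1, and EGR1. The comparison, the gene lists, and the rule were chosen with earlier results of these data known. Alternatives changed the background correction, the normalization, the floor, the source of the ratio, empty spots, pixel means, dim probes, the filter set as a block or A1 alone, the filter number, the identifier prefix, array weights, the arrays in the fit, and each arousal array left out in turn. Alternatives chosen after the data were seen were the 7 arousal arrays on A1 membranes alone and quantile normalization with the filter set as a block.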

Additional observations from a re-analysis of the deposited data

Results flagged for a closer look

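Of 146 groups of 4 arrays, 2 for each of the 73 named genes, 14 (9.59%) held 1 array far from the other 3 by Dixon's ratio. Of the 14, 7 were late arousal 04-30, on the A2 membrane. Chance gives about 1 in 20 for independent genes not chosen by their values. The named genes were chosen by their values on these same arrays and share them, so that rate is no background for this count. Values are log2 levels, and the range of the other 3 arrays follows each.

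On 04-30, the level was 0.57 for CTR9 (others -0.36 to -0.23), 0.79 for PSMB1 (-0.55 to -0.37), -0.44 for PGAM2, a muscle-type phosphoglycerate mutase (-1.69 to -1.51), and -0.0886 for HMOX1 (-1.56 to -1.32). On the same array it was 0.53 for CIRBP (1.81 to 1.87), -1.34 for RRP15, a ribosome biogenesis factor (0.82 or higher), and -2.84 for TYW1 (-1.73 to -1.62).

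Of the other late arrays, 04-31 had a level of 3.30 for LPIN2 (1.07 to 1.39) and 2000-22 had -0.89 for SQRDL (0.14 to 0.21). Among early arrays, 04-10 had 2.26 for ID2 (1.56 to 1.63) and 1.33 for RRP15 (0.45 to 0.58). In early arousal 04-21 the level of SQRDL was 1.05 (0.35 to 0.46), in 04-43 that of SLC9A3R1 was 1.46 (1.76 to 1.81), and in 04-84 that of PSMB1 was -1.09 (-0.82 to -0.79).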

How the results depend on the processing

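No probe was called between early and late arousal, as reported or in any of 24 alternatives. None was called for the interaction with torpor, as reported or in any of the alternatives that kept the torpor arrays. The count of probes at an unadjusted p under 0.05 was 748, with 538 on the 7 A1 arousal arrays alone, 927 with normexp, and 596 to 898 with 1 array left out. The count lower in late arousal was 258, and 171 with the 8 arousal arrays alone in the fit. Under quantile normalization, 422 were higher and 353 lower. Without 04-30, 7 of 73 named genes and 8 of 27 list medians changed sign. No paired analysis was possible because each animal was sampled once and the labels give animal identifiers, not shared replicate numbers. With 4 arrays per stage, the median interval reached 0.58 to either side. That interval is per probe and unadjusted, and it does not set the size of difference that the adjusted test could call. Larger differences were not called either.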
